A study of Mus musculus with 6 samples.

Results

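Strongly enriched TH2B islands were taken as the autosomal islands with at least 50 ChIP reads and a fold over control of at least 2. An island is a stretch of genome in which a broad-peak caller joined neighbouring enriched windows, and the fold is ChIP reads over control reads divided by 1 scaling constant per list. The rule kept 3203 of 44771 autosomal islands in 3 lists, out of 46507 islands on all chromosomes. It kept 1324 of 14956 islands in spermatocytes (8.85%), 1065 of 16447 in round spermatids (6.48%) and 814 of 13368 in the wild-type list (6.09%). These islands were chosen by read count and fold, so their folds and read counts are given below as descriptions. The remaining 41568 autosomal islands, 13632, 15382 and 12554 by list, are called the other islands.

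TH2B is a variant of histone H2B that is made in testis from meiosis on and takes the place of most somatic H2B in meiotic and post-meiotic germ cells. Spermatocytes are the cells in meiosis, and round spermatids are the haploid cells that follow and keep a nucleosome-based chromatin. When spermatids elongate, histones are removed and transition proteins and then protamines package the DNA. ChIP of a histone that is spread through chromatin commonly gives broad, shallow enrichment over input.

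The spermatocytes and round spermatids came from adult Th2b+/tag mice, in which 1 copy of the TH2B gene carries His, Flag and Ha tags at the C-terminus of the protein, and ChIP used an anti-HA antibody on cells separated by BSA gradient. HA ChIP reads the tagged protein alone, and these mice also keep an untagged copy. No HA ChIP of untagged cells was analysed here, so the folds were not checked for being specific to TH2B. The third ChIP library was made with an anti TH2B antibody from total male germ cells of adult wild-type mice, a mixture of stages. It therefore differed from the tagged libraries in genotype, antibody and cells together, and these cannot be told apart. Each group was 1 ChIP library with 1 input library, how many mice were used and how pure the fractions were is not given here, and no expression values were at hand to check the cells by markers. Which control library a list used is not stated in it, and the input from matching cells was assumed. The protocol speaks of pooled fractions of both tagged cell types, read here as pooled within each type. The wild-type input carries the TH2B antibody in its labels and is an input by title.

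Depth was known inside islands alone. The autosomal islands held 2000483, 2510450 and 1775998 ChIP reads (spermatocytes, then round spermatids, then wild-type germ cells, the order kept below), of which 114857, 98106 and 73542 lay in strongly enriched islands. These islands held 59685, 46271 and 32576 control reads and covered 3405.2, 2438.2 and 1374.2 kb, or 5.99%, 4.06% and 3.73% of all autosomal island bases. Intervals are 95% intervals of counting error only. They are exact (Clopper-Pearson) for shares, and for folds they come from the exact interval of the ChIP share of reads. Islands of 1 list share a library and lie in clusters, so they are not replicates. With 1 library per group no test between cell types or mice was made.

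Strong enrichment was a narrow band just above the threshold in all 3 lists. Strongly enriched spermatocyte islands had a median fold of 2.2, round spermatid ones 2.19 and wild-type ones 2.23, where the median over all autosomal islands was 1.51, 1.47 and 1.45. A fold between 2 and 2.2 was held by 669 islands (50.5%), 552 (51.8%) and 377 (46.3%) in that order. A fold of at least 3 was held by 75, 51 and 58 islands, and a fold of at least 4 by 11, 11 and 12. Just below the threshold, 1423, 1191 and 923 islands with at least 50 reads had folds of 1.8 to 2, more than the number of strongly enriched islands in each list.

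Single strongly enriched islands were not precisely measured. The median island held 83 ChIP and 43 control reads in spermatocytes, 88 and 42 in round spermatids, and 87 and 39 in the wild-type list. Under 100 ChIP reads were held by 1043 (78.8%), 731 (68.6%) and 570 (70.02%) of them. The interval of the fold lay wholly at or above 2 in 58 (4.38%), 34 (3.19%) and 41 islands (5.04%). It lay wholly above the median fold of the list in 696 (52.6%), 730 (68.5%) and 594 islands (73.0%). For most of these islands a fold below 2 was therefore within counting error.

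The islands next to the thresholds show how close the choice was. In spermatocytes chr5:128407601-128411600 was just inside with 111 ChIP and 65 control reads, and chr1:40783601-40785600 was just outside with 70 and 41. In round spermatids the pair was chr5:98532001-98535800 with 117 and 62 reads, and chr1:173882001-173884600 with 100 and 53. In wild-type germ cells it was chr6:92977801-92979200 with 91 and 46 reads, and chr4:145126201-145127800 with 89 and 45. Each pair differed in fold by far less than its counting interval. The read threshold removed 37, 20 and 21 autosomal islands that had a fold of at least 2. Among them was chr5:60983201-60983800 of round spermatids, where 49 ChIP reads stood against 9 control reads for a fold of 5.77 (interval 2.81 to 13.4). With 50 reads, chr14:105142001-105142800 of spermatocytes (fold 2.93), chr5:13268001-13268600 of round spermatids (2.41) and chr18:72550001-72550800 of wild-type germ cells (3.37) were kept. With 49 reads, chr14:23913201-23914200 of spermatocytes (2.87) and chr8:110627001-110627600 of wild-type germ cells (4.13) were not.

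Strongly enriched islands were short compared with the other islands of their list. Spermatocyte ones had a median length of 2400 bp, round spermatid ones 2200 bp and wild-type ones 1600 bp, beside 3800, 3400 and 2600 bp in the other islands. The middle 50% of strongly enriched islands spanned 1800 to 3200, 1600 to 2800 and 1200 to 2000 bp, and that of the other islands 2800 to 4600, 2600 to 4600 and 2000 to 3400 bp, so the ranges overlapped in part. The difference was present on both sides of 100 ChIP reads, with medians of 2200 against 2800 bp, 1800 against 2200 bp and 1400 against 1600 bp at 50 to 99 reads, and 3800 against 4400 bp, 3200 against 4000 bp and 2400 against 3000 bp at 100 reads or more. At most 1000 bp was the length of 56 strongly enriched spermatocyte islands (4.23%), 74 round spermatid islands (6.95%) and 163 wild-type islands (20.02%), against 1.08%, 1.37% and 2.36% of the other islands. Within the strongly enriched islands, fold and length had a Spearman rho of -0.27, -0.29 and -0.32 (n = 1324, 1065 and 814). Length and fold come from the same windows and reads, so these are descriptions.

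**Figure D1:**
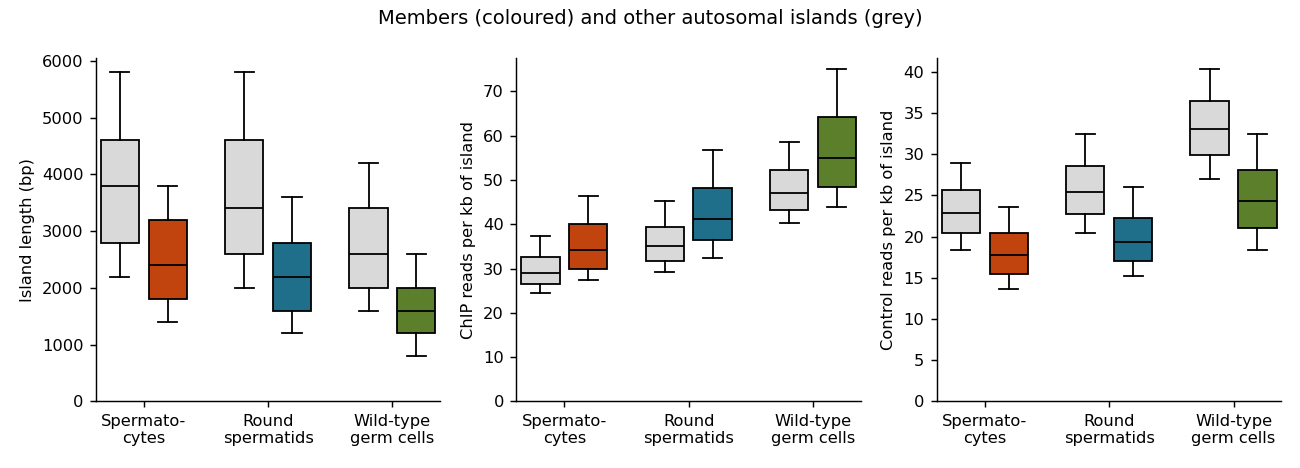
Island length in bp, ChIP reads per kb of island and control reads per kb of island, for the other autosomal islands (grey) and the strongly enriched islands (coloured) of each list. Boxes span the middle 50% with the median as a line, and whiskers run from the 10th to the 90th percentile. The coloured boxes sit lower for length and control density and higher for ChIP density in all 3 lists.

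A high fold can come from many ChIP reads or from few control reads, and both sides moved here. The median ChIP density was 34.2 reads per kb in strongly enriched spermatocyte islands against 29.0 in the other islands, 41.2 against 35.0 in round spermatids, and 55.0 against 47.1 in wild-type germ cells. Control density had a median of 17.8 against 22.9, 19.4 against 25.4 and 24.4 against 33.1 reads per kb. Control density was below the list's median in 1135 strongly enriched spermatocyte islands (85.7%), 909 round spermatid islands (85.4%) and 739 wild-type islands (90.8%). ChIP density was above the list's median in 1044 (78.9%), 848 (79.6%) and 637 (78.3%). Because fold is the ratio of these densities, these shares follow in part from the rule. The part of local control depth in the folds was not tested.

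Few of these islands had an unusually deep control. Control reads are the denominator of the fold that chose them, so this is a description of the choice. A control density over 2 times the list's median was found in 1 of 1324 strongly enriched spermatocyte islands, 5 of 1065 in round spermatids and 0 of 814 in the wild-type list, which allows a share of up to 0.452%. It was found in 1.06%, 1.43% and 0.693% of the other islands. The 1 spermatocyte case, chr13:77577801-77578400, was also the island with the most ChIP reads, and it is named because of these values. It held 1045 ChIP and 586 control reads in 600 bp, a fold of 2.09 (1.89 to 2.31) at 977 control reads per kb. A round spermatid island of 400 bp overlapped it with 972 and 563 reads, a fold of 1.83 (1.65 to 2.03), so that both libraries and both controls were deep at this place.

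The islands of highest fold rested on few control reads and were short. Both follow in part from the ranking, since control reads are the denominator of the fold and a short island holds few reads. The 5 highest of each list held 12 to 17 control reads in spermatocytes, 9 to 16 in round spermatids and 5 to 15 in the wild-type list, with 51 to 84 ChIP reads over the 3 lists. Their lengths were 800 to 1200, 800 to 1400 and 600 to 1600 bp. Of these 15 islands, 5 had an island of another list at or within 10 kb, beside 36.6%, 37.3% and 28.7% of all strongly enriched islands by list. No annotation of the build of the files was used here, so genes at these places are not named.

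In spermatocytes the highest, chr16:88907401-88908600, had 63 ChIP and 12 control reads for a fold of 6.15 (3.29 to 12.5). The nearest round spermatid island was 2 kb away and weak, with 181 and 139 reads and a fold of 1.38 (1.10 to 1.73), and the nearest wild-type island was 157.8 kb away. The third highest, chr1:29592001-29592800, had 53 and 14 reads for a fold of 4.43 (2.43 to 8.65). It lay inside a strongly enriched round spermatid island, chr1:29589801-29594200, with 135 and 71 reads and a fold of 2.02 (1.5 to 2.73). It was the 1 island among these 15 with a strongly enriched island of another list at or within 10 kb. The other three, chr3:24230801-24231600, chr10:109027201-109028400 and chr4:51444201-51445400, had their nearest round spermatid island at 39.8, 72.4 and 20.8 kb.

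In round spermatids the highest, chr10:56895801-56897000, had 68 ChIP and 9 control reads for a fold of 8.01 (3.98 to 18.3). Its nearest spermatocyte and wild-type islands were 16.8 and 15 kb away. The second, chr13:39206001-39207000, had 64 and 14 reads for a fold of 4.85 (2.69 to 9.36), with a spermatocyte island 4 kb away at a fold of 1.48 and a wild-type island 2.8 kb away at 1.32. Both neighbours were near or below their list's median fold. For chr12:12941001-12941800, chr18:55217401-55218800 and chr6:10120401-10121600 the nearest spermatocyte islands were 74, 46 and 217.2 kb away.

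In wild-type germ cells the highest fold of all lists was that of chr12:116851201-116852200, with 55 ChIP and 5 control reads, at 11.1 (4.49 to 35.6). A round spermatid island lay 6 kb away with a fold of 1.37, and the nearest spermatocyte island was 31.8 kb away. The fifth, chr4:50081001-50082600, had 84 and 15 reads for a fold of 5.66 (3.24 to 10.6). A round spermatid island shared 1400 bp with it at 76 and 48 reads, a fold of 1.68 (1.15 to 2.46). The wild-type island was chosen for its high fold, so the 2 folds were not compared. A spermatocyte island of fold 1.98 followed at 10.2 kb. The islands chr9:82733201-82733800, chr8:54523801-54524800 and chr6:60896801-60897600 had no tagged island nearer than 89.6, 36 and 49.2 kb.

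The longest strongly enriched islands had folds close to 2. In spermatocytes chr3:83449401-83456400 and chr4:34257801-34264800 reached 7000 bp with 202 and 190 ChIP reads against 118 and 111 control reads, both at a fold of 2.0, and chr17:70227801-70234600 reached 6800 bp at 2.09. In round spermatids the longest were chr6:45795001-45800400 with 5400 bp (190 and 97 reads, fold 2.08) and chr3:52280801-52286000 and chr6:92547801-92553000 with 5200 bp (2.11 and 2.05). In wild-type germ cells they were chr6:59317001-59321200 with 4200 bp (152 and 76 reads, fold 2.02) and chr2:19191601-19195600 and chr16:98285601-98289600 with 4000 bp (2.16 and 2.09). Of these 9 islands 1 overlapped an island of another list, chr16:98285601-98289600, which shared 600 bp with a round spermatid island of fold 1.38. Over all strongly enriched islands such overlap was found for 14.4%, 13.2% and 8.85% by list.

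**Figure D2:**
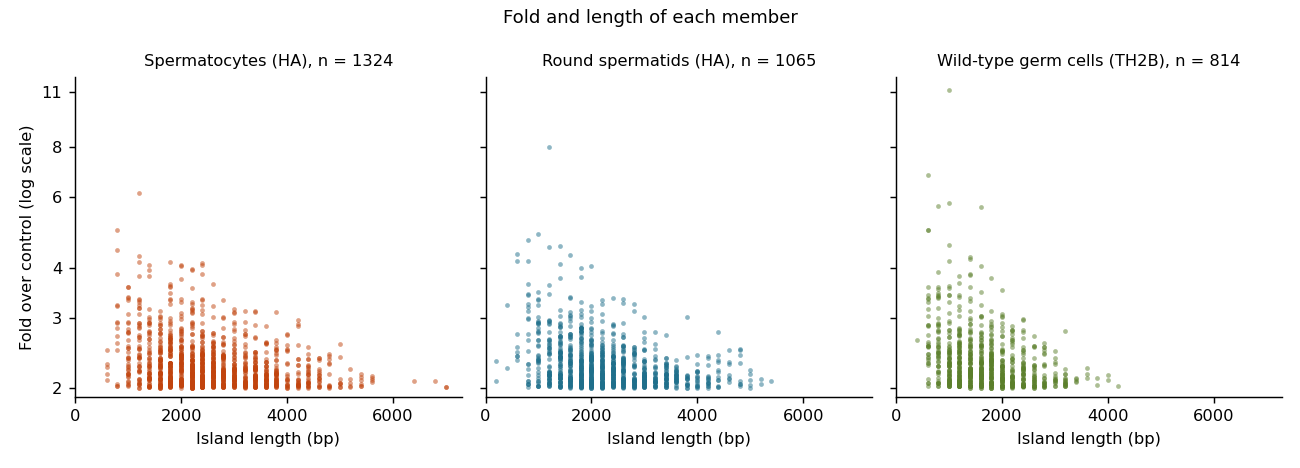
Fold over control (log axis) against island length in bp for every strongly enriched island of each list. Each point is 1 island. The points above a fold of 4 lie among the shorter islands, and the longest islands lie near a fold of 2.

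The first question across lists was whether another library had an island at the same place. Most islands had no counterpart close by, whether strongly enriched or not. Neither other list had an island at or within 10 kb of 839 spermatocyte islands (63.4%, 60.7 to 66.0). The same was true of 668 round spermatid islands (62.7%, 59.7 to 65.6) and of 580 from wild-type germ cells (71.3%). Among the other islands it was true of 56.4%, 57.9% and 75.1%, lower in the tagged lists and higher in the wild-type list. Both other lists had one near 47 (3.55%), 32 (3.0%) and 41 (5.04%). With overlap in place of distance, both other lists had one at 7, 3 and 6 islands (0.529%, 0.282% and 0.737%). The shares of the other islands were 0.917%, 0.871% and 0.892%.

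Between the tagged lists, strongly enriched islands had a neighbour less often than the other islands. A round spermatid island lay at or within 10 kb of 383 strongly enriched spermatocyte islands (28.9%, 26.5 to 31.5), against 35.5% (34.7 to 36.3) of the other spermatocyte islands. A spermatocyte island lay near 308 strongly enriched round spermatid islands (28.9%, 26.2 to 31.7), against 32.7% (32.0 to 33.4). By overlap the shares were 157 islands (11.9%, 10.2 to 13.7) against 17.0% (16.4 to 17.7), and 119 islands (11.2%, 9.34 to 13.2) against 15.3% (14.8 to 15.9). The intervals stayed apart in all 4 of these comparisons. At 50 kb the shares were 67.3% against 70.2% and 67.5% against 67.8%.

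Strongly enriched islands were shorter than the others, so the shares were also taken within classes of length. Among spermatocyte islands of 1600 to 2400 bp the share near a round spermatid island was 27.1% (23.4 to 31.1) of 539 strongly enriched against 34.5% (32.3 to 36.8) of the others. At 2600 to 3400 bp it was 25.3% (21.0 to 29.8) of 396 against 33.3% (31.8 to 34.8). Up to 1400 bp it was 37.9% (30.4 to 45.9) of 161 against 33.1% (28.0 to 38.5), and from 3600 bp 33.3% (27.2 to 39.9) of 228 against 36.9% (35.8 to 38.0). The lower share thus held beyond counting error in the 2 middle classes, and the shortest class lay the other way within its intervals. For round spermatid islands near a spermatocyte island the classes gave 27.7% against 29.6%, 28.4% against 30.2%, 30.4% against 31.9% and 30.1% against 34.3%, with overlapping intervals in every class. By overlap, spermatocyte islands gave 19.3% against 18.4%, 10.2% (7.78 to 13.1) against 14.9% (13.3 to 16.6), 10.9% (7.97 to 14.3) against 15.3% (14.1 to 16.4) and 12.3% (8.32 to 17.3) against 18.3% (17.5 to 19.2) from the shortest class to the longest. The intervals were apart in the second and the fourth of these classes. Round spermatid islands gave 9.22% against 14.3%, 11.9% against 12%, 11.7% against 14.3% and 10.6% against 17.2%, again with overlapping intervals in every class.

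Wild-type islands near strongly enriched tagged islands were few. They lay at or within 10 kb of 149 spermatocyte islands (11.3%, 9.60 to 13.1) against 13.1% (12.6 to 13.7) of the others, and of 121 round spermatid islands (11.4%, 9.52 to 13.4) against 13.9% (13.3 to 14.4). These intervals overlapped. By overlap the shares were 40 islands (3.02%, 2.17 to 4.09) against 4.64% (4.30 to 5.01) and 25 islands (2.35%, 1.52 to 3.45) against 5.09% (4.75 to 5.45), and there the intervals were apart. Within classes of length most of these differences were within the intervals. At 10 kb the direction for spermatocyte islands turned in the middle classes, with 12.1% against 11.2% at 1600 to 2400 bp and 12.6% against 11.7% at 2600 to 3400 bp, beside 7.45% against 12.3% in the shortest and 9.65% against 14.4% in the longest class. For round spermatid islands it was 6.80% against 8.30%, 11.5% against 12.5%, 12.5% against 12.9% and 16.8% against 15.4% from the shortest to the longest. By overlap the intervals were apart in 1 of 8 classes over both lists, the round spermatid islands of 1600 to 2400 bp, with 8 of 489 (1.64%, 0.709 to 3.2) against 4.05% (3.33 to 4.88).

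Seen from the wild-type list with all lengths together, a difference beyond counting error appeared only at 50 kb among the 3 distances tried. A tagged island of either kind lay at or within 10 kb of 234 strongly enriched wild-type islands (28.7%, 25.7 to 32.0) against 24.9% (24.1 to 25.7) of the others, with intervals that met. A spermatocyte island was near 122 (15.0%, 12.6 to 17.6) against 14%, and a round spermatid island near 153 (18.8%, 16.2 to 21.7) against 15.9% (15.3 to 16.6). At 50 kb the share near either was 58.8% (55.4 to 62.2) against 52.0% (51.1 to 52.9). Direct overlap was found for 40 islands (4.91%, 3.53 to 6.63) against 5.07% (4.69 to 5.46) with spermatocytes and for 38 (4.67%, 3.32 to 6.35) against 6.19% (5.77 to 6.63) with round spermatids, with overlapping intervals. Within classes of length, intervals were barely apart for wild-type islands of 2600 to 3400 bp. There a spermatocyte island lay at or within 10 kb of 21 of 92 (22.8%, 14.72 to 32.8) against 13.6% (12.6 to 14.67) of the others. In the other classes the intervals overlapped, at 10 kb and by overlap.

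**Figure D3:**
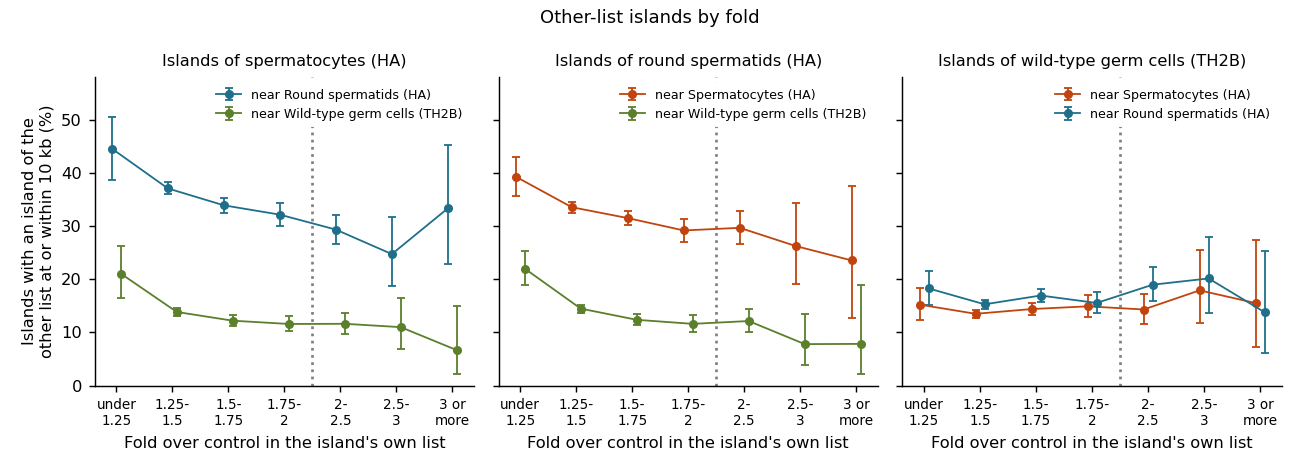
Percent of islands with at least 50 ChIP reads that had an island of another list at or within 10 kb, by class of fold in their own list, with exact 95% intervals of counting error. Points right of the dotted line at a fold of 2 are strongly enriched islands. In both tagged lists the share near the other tagged list and the share near the wild-type list fall from the lowest class of fold to the class of 2.5 to 3. The shares of wild-type islands are flat within their intervals.

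In the tagged lists the share near another list, tagged or wild-type, fell over most of the range of fold, with no step at the threshold. For spermatocyte islands near a round spermatid island it went from 44.6% in the class of lowest fold through 32.1% in the class just under 2 and 29.3% at 2 to 2.5 to 24.7% (18.6 to 31.7) at 2.5 to 3. At a fold of at least 3 it was 25 of 75 islands (33.3%, 22.9 to 45.2). For round spermatid islands near a spermatocyte island it went from 39.3% to 29.2%, 29.7%, 26.2% and, at a fold of at least 3, 12 of 51 (23.5%, 12.8 to 37.5). Median length fell along the same classes, from 6800 to 1800 bp in spermatocytes and from 6000 to 1400 bp in round spermatids. Wild-type islands near a spermatocyte island stayed between 13.5% and 17.9% in all 7 classes.

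The second question was whether the other library was also more enriched at these places, which is the same measure in reads that the rule did not use. Only places where the other list had an overlapping called island could be read. No island of either other list overlapped 85.6%, 86.8% and 91.2% of strongly enriched islands by list, and the other folds there are not known. Where there was an overlap, the median fold lay near that of the whole other list, with small differences in both directions. No interval of these medians was computed. Round spermatid islands that overlapped strongly enriched spermatocyte islands had a median fold of 1.45 (middle 50% 1.34 to 1.63, n = 157), against 1.44 at the other spermatocyte islands and 1.47 in the whole list. Spermatocyte islands that overlapped strongly enriched round spermatid islands had a median of 1.54 (1.41 to 1.69, n = 119), against 1.47 at the others and 1.51 in the whole list. Wild-type islands had 1.52 at spermatocyte ones (n = 40) and 1.5 at round spermatid ones (n = 25), against 1.44 at the others in both cases. At strongly enriched wild-type islands, spermatocyte islands had 1.45 (n = 40) and round spermatid islands 1.39 (n = 38), against 1.45 and 1.41. These differences were small beside the spread within each set.

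**Figure D4:**
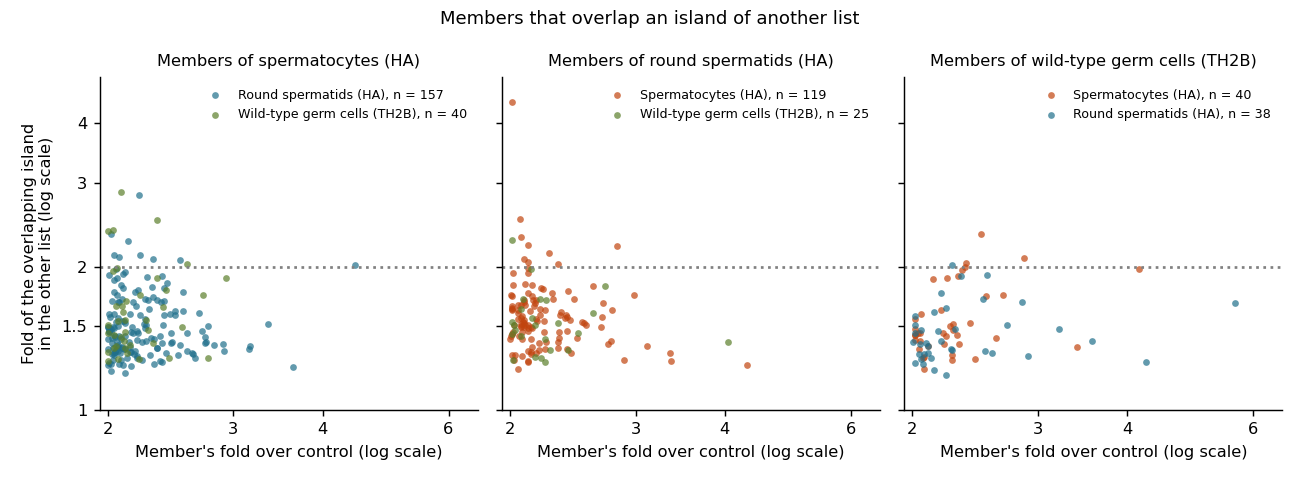
Fold of an overlapping island in another list against the fold of the strongly enriched island it overlaps, both on log axes. Each point is 1 pair, coloured by the other list, and the dotted line marks a fold of 2 in the other list. Most points lie below that line at all folds of the strongly enriched island.

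Within the strongly enriched islands, folds of overlapping tagged islands were not ordered alike. The Spearman rho of the 2 folds over overlapping pairs was 0.0073 from spermatocytes to round spermatids (n = 157) and -0.12 from round spermatids to spermatocytes (n = 119). Over the other islands, whose folds span a different range, it was 0.14 (n = 2319) and 0.13 (n = 2361). For strongly enriched wild-type islands it was 0.35 with spermatocytes (n = 40) and 0.26 with round spermatids (n = 38). The rule leaves out folds below 2 on 1 side, the folds carry large counting error, and pairs within a comparison share their libraries, so these are descriptions. The overlapping fold was the higher of the 2 in 5 of 157 and 4 of 119 pairs between the tagged lists, which follows from choosing on 1 of them.

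Control density was also taken in the overlapping islands of the other lists. At strongly enriched spermatocyte islands the overlapping round spermatid islands had a median control density of 25.7 reads per kb, the same as at the other spermatocyte islands. Spermatocyte islands had 22.2 against 23.5 at round spermatid ones. Wild-type islands had 30.7 against 32.4 at spermatocyte ones and 32.1 against 32.8 at round spermatid ones. At strongly enriched wild-type islands, spermatocyte islands had 23.8 against 23.5 and round spermatid islands 24.9 against 26.2. The low control density in the strongly enriched islands' own list follows in part from the rule, so these gaps were not compared with it. Densities were taken over the whole overlapping island, not over the shared bases. These values cover only places where the other library had a called island.

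Another list's island near a strongly enriched one was itself strongly enriched about as often as any island of its list. Of the round spermatid islands nearest to spermatocyte ones within 10 kb, 23 of 383 were strongly enriched (6.01%, 3.84 to 8.87), beside 6.48% of that list. In the reverse direction it was 26 of 308 (8.44%, 5.59 to 12.1), beside 8.85%. Wild-type islands there were strongly enriched in 9 of 149 cases at spermatocyte ones (6.04%) and 5 of 121 at round spermatid ones (4.13%), beside 6.09%. At wild-type ones, 9 of 122 spermatocyte islands (7.38%) and 5 of 153 round spermatid islands (3.27%, 1.07 to 7.46) were. All of these shares had intervals that held the share of the list.

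Over all lists there were 44 pairs of strongly enriched islands at or within 10 kb of each other, 28 between the tagged lists, 10 between spermatocytes and wild-type germ cells and 6 between round spermatids and wild-type germ cells. Bases were shared by 15 of them, 9, 5 and 1 in the same order. No island had strongly enriched islands of both other lists within 10 kb. Either alone was rare, so this absence says little about these islands. No pair had a fold of at least 2.5 on both sides, and the highest value of the lower fold was 2.48. Such folds were uncommon in every list, where 80.6%, 82.0% and 76.4% of strongly enriched islands had a fold under 2.5. A strongly enriched round spermatid island lay near 26 strongly enriched spermatocyte islands (1.96%, 1.29 to 2.86) against 2.42% of the other spermatocyte islands, and a strongly enriched spermatocyte island near 28 strongly enriched round spermatid islands (2.63%) against 2.68% of the others. For strongly enriched wild-type islands the shares were 0.755% against 0.968% of spermatocyte islands and 0.563% against 1.05% of round spermatid islands. By overlap, spermatocyte islands gave 0.680% against 0.807% with round spermatid ones and 0.378% against 0.271% with wild-type ones. Round spermatid islands gave 0.0939% against 0.241% with wild-type ones.

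The 10 pairs that overlapped with the highest lower fold show what a shared place looked like. The first was chr7:94974001-94975600 in spermatocytes with 72 ChIP and 36 control reads, a fold of 2.34 (1.55 to 3.6). The wild-type island chr7:94974001-94976000 covered it with 89 and 36 reads, a fold of 2.5 (1.68 to 3.79). The islands began at the same window. Their intervals overlapped almost fully, a description only, since both folds were chosen to be at least 2.

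The second pair had more reads on 1 side. The spermatocyte island chr3:138730601-138734400 had 119 and 63 reads (fold 2.21, 1.62 to 3.05), and the round spermatid island chr3:138730601-138732400 began at the same base with 80 and 30 reads (2.83, 1.84 to 4.46). On chr11 the spermatocyte island chr11:22229401-22235000, with 157 and 86 reads (2.14), held the whole of the round spermatid island chr11:22229601-22232400, with 107 and 50 reads (2.27). At chr16:69272601-69275000 both tagged lists had the same island to the base, with 74 and 39 reads in spermatocytes (2.22, 1.49 to 3.36) and 78 and 39 in round spermatids (2.12, 1.43 to 3.20). It was the 1 pair of the 10 with equal start and end.

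The other six had lower folds of 2.03 to 2.09 and overlaps of 200 to 1600 bp. With wild-type germ cells they were chr6:109715401-109717800 (82 and 46 reads, fold 2.09), around the wild-type island chr6:109716401-109717000 (54 and 19 reads, 2.87), and chr1:63396401-63399600 (85 and 49, 2.03), which shared 400 bp with chr1:63399201-63401600 (106 and 45, 2.38). With round spermatids they were chr4:36287201-36289600 (78 and 44, 2.08) with chr4:36287801-36289400 (75 and 38, 2.09), and chr9:94190001-94191000 (56 and 26, 2.52) with chr9:94189001-94191000 (78 and 40, 2.07). The last were chr5:88424601-88427600 (89 and 51, 2.04) with chr5:88423001-88425200 (102 and 51, 2.12), and chr11:42051401-42056200 (154 and 78, 2.31), which shared 200 bp with chr11:42050001-42051600 (84 and 43, 2.07). In every one of the 10 pairs the intervals of the 2 folds overlapped, which follows in part from choosing pairs with both folds of at least 2.

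Most strongly enriched islands had no other of their list within 100 kb. They are 8.85%, 6.48% and 6.09% of their lists, so wide spacing follows in part from their number. No reference for the spacing was computed, so the distances and groups below are descriptions. Another one of the same list lay within 10 kb of 24 spermatocyte islands (1.81%), 14 round spermatid islands (1.31%) and 8 wild-type islands (0.983%). Within 100 kb the numbers were 208 (15.7%, 13.8 to 17.8), 136 (12.8%, 10.8 to 14.9) and 65 (7.99%, 6.22 to 10.06). The median distance to the next was 384, 559.6 and 1126.4 kb, in the order of their numbers, and a list with more islands has shorter distances, so the lists were not ranked. An island of their own list, of any fold, lay within 10 kb of 280 (21.1%), 240 (22.5%) and 119 (14.6%), against 22.2%, 24.5% and 16.6% of the other islands. All 3 shares were slightly lower, within their intervals.

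Linking islands over gaps of at most 100 kb left 1116 single islands in spermatocytes with 89 pairs, 7 groups of 3, 1 of 4 and 1 of 5. In round spermatids it left 929 single islands, 59 pairs and 6 groups of 3, and in wild-type germ cells 749, 31 and 1. No group had more than 5 strongly enriched islands. Of 1 Mb bins with any island of the list, 1186, 1363 and 1535 held none of them, 579, 582 and 611 held 1, and the fullest held 6, 4 and 4.

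The group of 5 lay on chr10:102080201-102285600 in spermatocytes and spanned 205.4 kb. Its islands had folds of 2.03 (92 ChIP and 53 control reads), 2.44 (75 and 36), 2.37 (79 and 39), 2.02 (69 and 40) and 2.11 (157 and 87). They made up 5 of the 6 spermatocyte islands in the span. Round spermatids had 2 islands in it, neither strongly enriched, and wild-type germ cells had 1, which was. The span was chosen for its spermatocyte islands, and 2 round spermatid islands are too few to set against the 6.48% of that list.

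In round spermatids the tightest group of 3 was chr18:43999001-44098800, over 99.8 kb, with folds of 3.10 (76 and 26 reads), 2.42 (105 and 46) and 2.10 (105 and 53). It took in 3 of 5 round spermatid islands there, 1 of 3 spermatocyte islands in the span was strongly enriched, and wild-type germ cells had none. In wild-type germ cells the group of 3 was chr12:90860201-90972000, over 111.8 kb, with folds of 2.23 (97 and 44 reads), 2.02 (150 and 75) and 2.63 (91 and 35). These were all 3 wild-type islands of the span, where 1 of 4 spermatocyte islands and 0 of 3 round spermatid islands were strongly enriched. Each group was chosen as the fullest of its list, and the islands of the other lists there were too few to compare with their lists' shares.

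The surroundings of strongly enriched islands differed most in wild-type germ cells. Within 500 kb to either side, a strongly enriched wild-type island had a mean of 6.35 other wild-type islands, against 7.47 around the other wild-type islands. Around the same islands there were 6.23 spermatocyte islands against 4.93, and 6.72 round spermatid islands against 6.0. Strong wild-type islands thus lay where wild-type islands were sparser and tagged islands denser. The medians were 6 against 7, 5 against 4 and 6 against 5, and the middle 50% overlapped widely (2 to 10 against 1 to 8 for spermatocyte islands).

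In the tagged lists the surroundings differed less. Around strongly enriched spermatocyte islands the means were 9.64 against 9.85 spermatocyte islands, 9.70 against 10.4 round spermatid islands and 3.89 against 4.53 wild-type islands. Around strongly enriched round spermatid islands they were 9.24 against 9.42 spermatocyte, 9.81 against 10.5 round spermatid and 4.70 against 4.93 wild-type islands. All 6 means were slightly lower than around the other islands. Windows of neighbouring islands overlap, so no interval is given.

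Position within chromosomes was alike for strongly enriched and other islands. The first 5 Mb held 1.59%, 1.41% and 1.47% of strongly enriched islands against 1.34%, 1.78% and 1.28% of the others, and the last 5 Mb held 2.72%, 3.10% and 5.77% against 2.49%, 3.16% and 4.90%, all with overlapping intervals. Over the first 10% and the last 10% of the chromosome's length, 1 of 6 differences lay outside the intervals, at the start for round spermatids, with 7.51% (6.0 to 9.26) against 9.88% (9.41 to 10.4).

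The share of a chromosome's islands that were strongly enriched varied moderately. In spermatocytes it ran from 7.09% on chr11 (38 of 536) to 10.3% on chr16 (74 of 721), and the intervals of both held the 8.85% of the list. In round spermatids it ran from 4.45% on chr18 (33 of 741, 3.09 to 6.20) to 9.11% on chr14 (72 of 790, 7.20 to 11.3), and both intervals lay off the 6.48% of the list. In the wild-type list the lowest was 3.92% on chr11 (34 of 868, 2.73 to 5.43), whose interval lay below the 6.09% of the list, and the highest 8.07% on chr3 (51 of 632, 6.07 to 10.5). Chr18 was low in round spermatids and at 9.10% in spermatocytes, near that list's own share. Chr1 in round spermatids (4.85%) and chr2 in wild-type germ cells (4.59%) were the other cases with an interval below the share of the list.

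**Figure D5:**
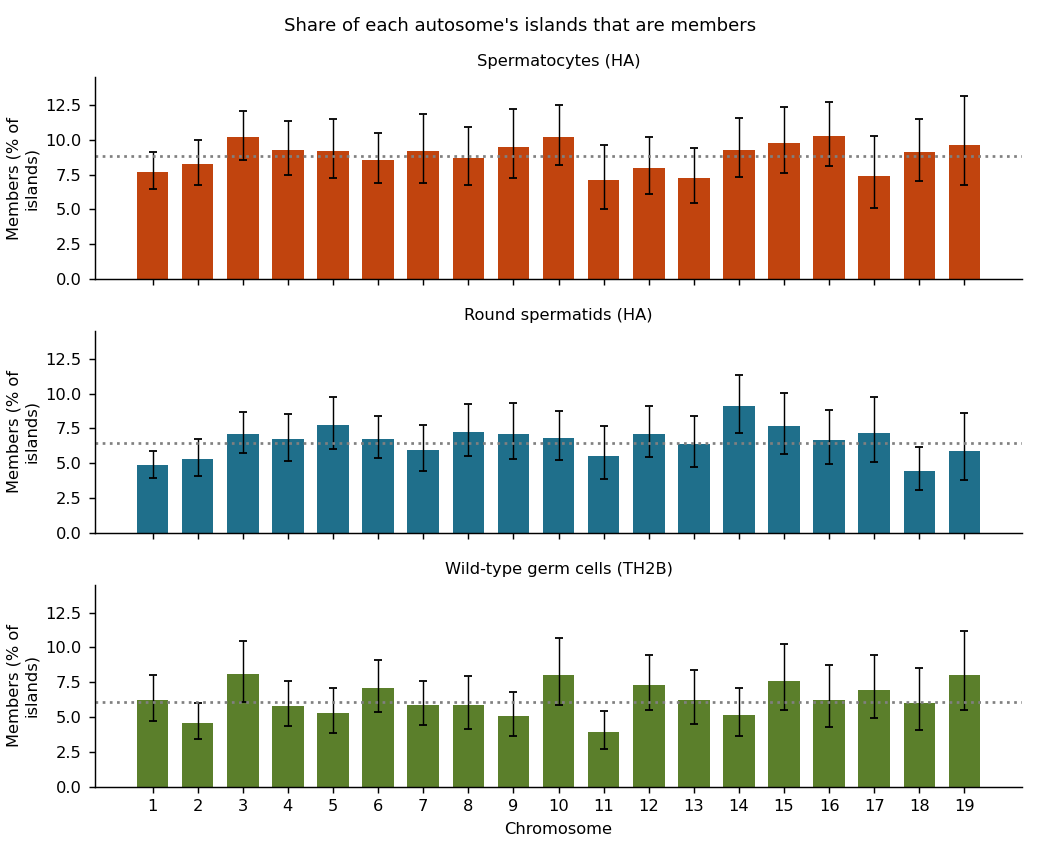
Percent of each autosome's islands that were strongly enriched, by list, with exact 95% intervals of counting error. The dotted line is the share over all autosomes of the list. In spermatocytes the bars stay close to the line, chromosome 14 stands above it and chromosomes 1 and 18 below it in round spermatids, and chromosomes 2 and 11 are low in the wild-type list.

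The order of chromosomes was weakly shared between lists. Chr3 and chr10 were among the highest in both spermatocytes (10.2% each) and wild-type germ cells (8.07% and 8.05%), while chr14, highest in round spermatids, was at 9.30% and 5.18% in the other two. Over 19 chromosomes the Spearman rho of these shares was 0.32 between the tagged lists, 0.37 between spermatocytes and wild-type germ cells and 0.089 between round spermatids and wild-type germ cells. Counted per Mb, the tagged lists had a rho of 0.59, and the wild-type list had -0.067 with spermatocytes and 0.082 with round spermatids. Within a list, the share and the chromosome's median control density had a rho of -0.29, -0.42 and -0.58. The share and the number of islands per Mb had 0.22, -0.35 and -0.52. Chromosomes within a list share 1 library pair, and the part of control depth in these shares was not tested.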

How the data were processed

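Data were 3 island lists from 6 samples (3 ChIP and 3 input libraries, 1 library per group), called with SICER on mm9 according to the submitters' processing notes. The lists' names give a 200 bp window and a 600 bp gap. Aligner, tool versions and read filtering were not given in the sources used here. The authors deposited counts of ChIP and control reads per island, a p-value and FDR (under 0.01), and a fold, which is a ratio of ChIP to control counts scaled by a constant of each list (0.854, 0.944 and 0.989). Depth is that inside islands; a position outside a list may hold reads under the caller's threshold. Positions are mm9, counted from 1.

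Folds were computed from the counts, and intervals with scipy 1.17.1. Python 3.11.15, numpy 2.4.6, pandas 2.3.3 and matplotlib 3.10.9 were used, with chromosome lengths from GenomeInfoDb 1.38.1, and the code was checked on simulated islands. Gaps are the bases between islands. Where several islands of another list were near, the one with the most overlap, then the nearest, gave its values.

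Regions named were, per list, the 5 of highest fold, the 3 longest, the fullest group, those next to the thresholds, and 10 pairs between lists (smallest gap, then highest lower fold). Members and rules were chosen with earlier results of these data known. Sequences and genes were not used, as no mm9 genome or annotation was at hand. Islands on other chromosomes were left out by the rule.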

Additional observations from a re-analysis of the deposited data

How the results depend on the processing

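Of 51 alternative values for 12 results, 16 moved by less than their interval (a count by less than 1.5 times) and 35 by more. The number of strongly enriched islands did not change with the deposited fold, and neither their number nor their median length changed with an FDR of at most 0.0001, in any list.

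A fold of at least 3 left 75 spermatocyte, 51 round spermatid and 58 wild-type islands, with median lengths of 1800, 1400 and 1000 bp, and at least 100 ChIP reads left 281, 334 and 244, with 3800, 3200 and 2400 bp. The share near another list at 10 kb (tagged lists with each other, the wild-type list with either) was 11.9%, 11.2% and 8.85% by overlap, 67.3%, 67.5% and 58.8% at 50 kb, and 15.3%, 15.1% and 15.0% with an FDR of at most 0.0001 in all lists, which leaves fewer islands to be near. With a fold of at least 3 it was 33.3% (22.9 to 45.2) for spermatocytes and 23.5% (12.8 to 37.5) for round spermatids. With at least 100 reads it was 32.4% (26.9 to 38.2) in spermatocytes and 32.8% (26.9 to 39.1) in wild-type germ cells. Among islands of 1600 to 3400 bp, an alternative chosen after seeing the data, it was 26.3% (23.5 to 29.3) in spermatocytes. Each of the intervals just given held the share of the main setting, so these changes lay within counting error. The share with another strongly enriched island within 100 kb was 77.4%, 68.2% and 45.9% at 1000 kb. With at least 100 reads it was 3.56%, 4.19% and 5.74%. With a fold of at least 3 it was 0% of 75 islands in spermatocytes (which allows up to 4.80%), 3.92% in round spermatids and 0% of 58 in wild-type germ cells (up to 6.16%), on fewer islands. The cause of the other changes was not tested. The classes of length for overlap were also chosen after seeing the data.

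No paired analysis was possible because each group has 1 library and no result comes from a test. Folds of single islands are limited by depth, with 83 to 88 ChIP reads in the median island. No library stands in for a replicate, so the spread between mice or preparations is unknown.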
